A study of Homo sapiens with 9 samples.

Results

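Collagen chain genes were examined in RNA-seq libraries labelled as the human liver tumour line HepG2. Members were all rows of the deposited table whose gene symbol has the form of a collagen chain (COL, a type number, A and a chain number). This gave 44 of 58174 genes: 11 fibrillar collagens, 6 type IV collagens of basement membranes and 27 other collagens. The study compared 3 groups of 3 libraries: control cells, which the labels give as wild type and the protocol text names after the pLVX lentiviral vector, a line overexpressing NFE2L1, and a line overexpressing NFE2L1DC. The protocol writes the last form with a delta before the C, and the sources used here do not say which residues it lacks. All cells grew in high-glucose DMEM with FBS. The design text counts 1 line per group, so the libraries of a group share a line, and a difference between constructs cannot be told apart from a difference between lines. The series title asks about an activity of NFE2L1 other than transcription.

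Collagens are secreted matrix proteins made of chains that wind into a triple helix. Fibrillar collagens assemble into banded fibrils, type IV collagens form the sheet-like network under epithelia and around vessels, and the other types decorate fibrils, anchor basement membranes or sit in cell membranes. In liver, fibrillar collagens come mainly from stellate cells and fibroblasts and accumulate in fibrosis. NFE2L1 is a cap'n'collar transcription factor that is held in the endoplasmic reticulum, where collagen chains are also folded, and that binds DNA together with small MAF proteins after it is released.

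Values are in TPM, a transcript abundance scaled for transcript length and library size. Levels of different genes are set side by side on that scale. The quantifier, annotation and strandedness are not given, so rankings, ratios and sums across genes are approximate. The table holds no counts and the depth is unknown. All 9 hepatocyte markers (ALB, AFP, APOA1, APOB, TTR, SERPINA1, TF, FGB and HNF4A) stayed below 1 TPM in all 9 libraries, and 5 of them (ALB, APOB, TTR, SERPINA1 and FGB) were listed at 0 throughout. Their summed level was between 0.0452 and 0.319 TPM, which goes against the HepG2 label. The libraries are therefore called labelled HepG2, and no other cell type name is given. Of 6 immune markers CD68 alone reached 1 TPM, with PTPRC listed at 0, and the list summed to 22.5 to 23.4 TPM in the controls, 34.3 to 41.8 TPM in the NFE2L1 libraries and 24.8 to 26.8 TPM in the NFE2L1DC libraries. Its part in the results below was not tested. NFE2L1 stood at 104, 81.7 and 64.0 TPM in the controls, at 207, 181 and 354 TPM in the NFE2L1 libraries and at 445, 427 and 472 TPM in the NFE2L1DC libraries, so all 6 overexpression libraries lay above all controls. The controls differed among themselves. Across genes, the deviations of a library from the mean library correlated with transcript GC content at a Spearman rho of 0.555 and 0.433 in control replicates 1 and 2, and of -0.383 in control replicate 3. The rho was -0.258, -0.229 and -0.292 in the NFE2L1 libraries and -0.332, -0.0373 and 0.172 in the NFE2L1DC libraries. Median-of-ratios scaling factors were 0.889 and 0.874 for control replicates 1 and 2, 1.07 for control replicate 3 and 0.982 to 1.08 for the overexpression libraries. On both measures control replicate 3 thus lay with the NFE2L1 libraries and away from the other controls, and the part of GC content in the differences from control was not tested. Leaving out a control moved calls of collagens and of pathway genes.

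Type IV collagen genes lie head to head in pairs that share the DNA between their starts, and this stretch is shown for the X-linked pair because COL4A6 changed in the NFE2L1 line and the same letters lie upstream of COL4A5. In the RefSeq annotation of GRCh38.p14 the COL4A6 start at 108439458 and the COL4A5 start at 108439838 had 379 bases between them. The COL4A1 and COL4A2 starts on chromosome 13 had 126 bases between them, and the COL4A4 and COL4A3 starts on chromosome 2 had 418. Both stretches below are read 5′ to 3′ on the strand of the gene named and lie outside annotated exons: chrX:108439498-108439708, minus strand, for COL4A6 and chrX:108439588-108439837, plus strand, for COL4A5. Capitals mark the fixed letters of the motif TGACNNNGC, the core bound by cap'n'collar and small MAF dimers, and CCAAT boxes, each on either strand.
COL4A6: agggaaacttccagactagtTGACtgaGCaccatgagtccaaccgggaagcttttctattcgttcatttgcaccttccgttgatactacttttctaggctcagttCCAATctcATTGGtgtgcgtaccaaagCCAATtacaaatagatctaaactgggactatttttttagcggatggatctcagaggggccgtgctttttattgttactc
COL4A5: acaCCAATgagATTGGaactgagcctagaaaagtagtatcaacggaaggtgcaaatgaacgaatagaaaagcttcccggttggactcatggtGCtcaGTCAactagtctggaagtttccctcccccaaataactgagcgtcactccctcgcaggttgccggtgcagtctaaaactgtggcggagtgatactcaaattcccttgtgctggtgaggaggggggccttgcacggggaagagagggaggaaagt

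Both stretches hold the same TGACNNNGC match, at chrX:108439680-108439688, which reads TGACTGAGC on the COL4A6 strand. It lies 230 bases upstream of the COL4A6 start and 158 bases upstream of the COL4A5 start. RefSeq windows of 250 bases before to 50 after the start were present for 12 of the 17 collagen genes tested, all but COL1A1, COL3A1, COL6A1, COL8A1 and COL9A3. These 12 genes had 15 windows. Searched on both strands, TGACNNNGC occurred in 2 of the 15 (COL4A5 and COL4A6, both at the site above) and in 13.3% of all 35116 windows. CCAAT occurred in 4 of the 15 (COL4A1, COL4A2, COL4A5 and COL4A6) and in 34.6% of all windows. GGGCGG, the GC box, occurred in 13 of the 15 and in 45.0% of all windows. The 13 belong to 11 of the 12 genes, all but COL4A5. For COL4A6 it lay only in another window, chrX:108438373-108438672, and not in the stretch shown. TATAA occurred in 2 of the 15 (COL7A1 and COL18A1) and in 20.4% of all windows. These are matches of letters and not sites of binding. In the stretches shown no match of one motif overlapped a match of the other.

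Of the 44 collagen genes, 17 reached 1 TPM in at least 3 libraries and were tested: 4 of 11 fibrillar, 4 of 6 type IV and 9 of 27 other genes. COL4A4 reached 1 TPM in 1 library, at 1.07 TPM in control replicate 3, and ranged from 0.516 to 0.829 TPM in the others. Just inside the limit lay COL8A1, a short-chain collagen, between 0.682 and 2.27 TPM. Just outside it were COL4A4 and its partner COL4A3, which peaked at 0.934 TPM.

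The remaining 26 genes stayed below 1 TPM in every library and are reported as not expressed. They were the fibrillar genes COL1A2, COL2A1, COL5A2, COL5A3, COL11A1, COL11A2 and COL24A1, the type IV gene COL4A3, and the other genes COL6A2, COL6A3, COL6A5, COL6A6, COL8A2, COL9A1, COL10A1, COL13A1, COL14A1, COL17A1, COL19A1, COL20A1, COL21A1, COL22A1, COL23A1, COL25A1, COL26A1 and COL28A1. Of these, 8 were listed at 0 in all 9 libraries: COL1A2, COL6A3, COL6A5, COL9A1, COL22A1, COL23A1, COL25A1 and COL28A1.

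Chains that usually assemble together were unequally represented. COL1A1 and COL1A2 make up type I collagen, the main fibril of bone, skin and scar. COL1A1 was present at 15.9 to 22.2 TPM, and COL1A2 was listed at 0 in every library. COL5A1 was present at 103 to 143 TPM, while COL5A2, with which it forms type V collagen, peaked at 0.292 TPM and COL5A3, the alternative partner, at 0.408 TPM. Type VI collagen needs COL6A1, COL6A2 and COL6A3: COL6A1 lay between 0.831 and 2.85 TPM, COL6A2 peaked at 0.911 TPM, and COL6A3 was listed at 0. COL9A2 and COL9A3, 2 chains of the fibril-associated type IX, were present while the third, COL9A1, was listed at 0. COL3A1 forms a helix of its own chain alone and has no such partner. COL5A2 lies next to COL3A1 on chromosome 2, with 19149 bases between the genes, yet COL3A1 was at 61.3 TPM or more in every library.

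The 5 genes with the highest mean levels, COL15A1, COL4A2, COL5A1, COL3A1 and COL12A1, took between 73.8% and 78.6% of all collagen TPM in a library. Summed over all collagens, the level was 855 ± 66.7 TPM in the controls and 833 ± 24.6 TPM in the NFE2L1 line, with 754 ± 69.4 TPM in the NFE2L1DC line (SD, n = 3 libraries per group here and below). That is 0.0855%, 0.0833% and 0.0754% of all TPM.

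**Figure D1:**
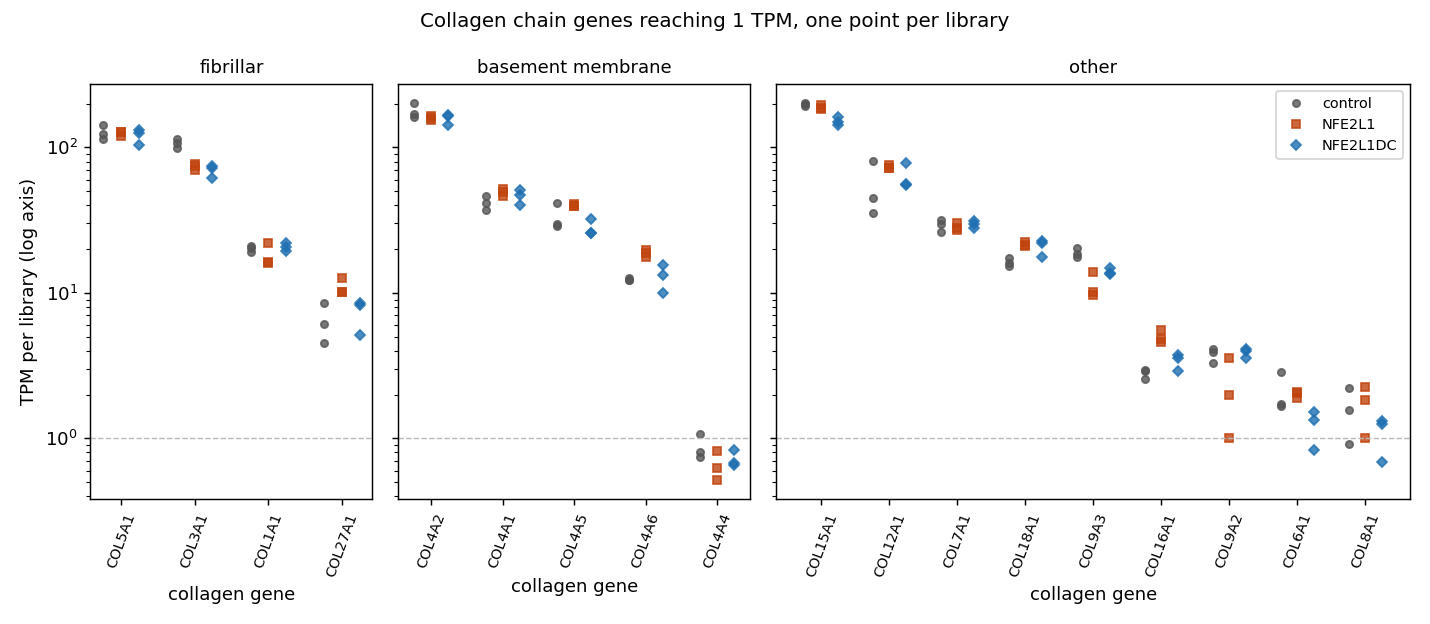
TPM of the 18 collagen genes that reached 1 TPM in at least 1 library, on a log axis, with 1 point per library and genes ordered by mean level within each class. COL5A1 and COL3A1 lead the fibrillar genes, COL4A2 the type IV genes and COL15A1 the others, and the dashed line marks 1 TPM.

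Of the 4 fibrillar genes tested, COL3A1 fell in the NFE2L1 line and in the NFE2L1DC line, and the other 3 passed the test in neither. Type III collagen, the product of COL3A1, gives pliable reticular fibres in vessel walls and liver. COL3A1 (ENSG00000168542, GRCh38 chr2:188974320-189012746, plus strand) stood at 107, 99.7 and 114 TPM in control replicates 1 to 3, at 77.3, 74.2 and 69.9 TPM in the NFE2L1 line and at 72.4, 61.3 and 74.8 TPM in the NFE2L1DC line. All 6 overexpression libraries lay below all 3 controls. The share of all genes whose libraries separate from the controls was not counted. Nothing is therefore read from such separation here or below, for single genes or for sums. Differences were tested with limma on log2(TPM + 1) over all 14118 genes that reached 1 TPM in at least 3 libraries, 2-sided, and a gene is called changed at a Benjamini-Hochberg adjusted p under 0.05. Log2 fold changes are those of TPM + 1, so changes of genes near 1 TPM come out smaller than they are.

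In the NFE2L1 line COL3A1 fell from a mean of 107 ± 7.20 to 73.8 ± 3.68 TPM, 0.690 times the control level (log2 fold change -0.53, SE 0.10, limma adjusted p = 0.0110). In the NFE2L1DC line it fell to 69.5 ± 7.18 TPM, 0.650 times the control level (-0.62, SE 0.10, adjusted p = 0.0127). The lines share their controls, so the 2 falls are not independent of each other. Between the lines, COL3A1 differed by 0.09 (SE 0.10, adjusted p = 0.897). Of 17 other fits per comparison, 16 called each fall. The exceptions were the fit without NFE2L1 replicate 3 for the NFE2L1 line (-0.49, adjusted p = 0.0538) and the fit of only the 2 groups for the NFE2L1DC line (adjusted p = 0.0638).

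Markers of fibroblasts and stellate cells, the usual source of COL3A1, had a lower sum in the same libraries. Of the 10 markers, 5 reached 1 TPM in a library (PDGFRB, DCN, ACTA2, RGS5 and DES), PDGFRA, LUM, THY1 and FAP stayed below it, and POSTN was listed at 0. Their sum ranged from 28.0 to 34.3 TPM in the controls, from 16.9 to 20.2 TPM in the NFE2L1 line and from 17.2 to 22.2 TPM in the NFE2L1DC line. ACTA2, smooth muscle actin, made up most of it, at 18.5 ± 0.237, 11.8 ± 1.38 and 12.0 ± 1.85 TPM in the 3 groups. The means of PDGFRB, DCN and DES, and of the low PDGFRA, THY1 and FAP, were also below control in both lines. For DCN the controls stood at 1.04, 1.49 and 5.65 TPM, so its control mean rested largely on replicate 3. The list did not move as one. Means of RGS5 (0.565, 0.807 and 0.846 TPM in the 3 groups) and of the low LUM were above control in both lines. The part of such cells in the fall of COL3A1 was not tested. Fewer cells of a type and less RNA per cell cannot be told apart in bulk RNA.

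COL5A1, whose chain helps to start fibrils, was the most abundant fibrillar gene (ENSG00000130635, chr9:134641774-134844843, plus strand). It stood at 143, 114 and 123 TPM in the controls and 127, 121 and 127 TPM in the NFE2L1 line, with 125, 103 and 131 TPM in the NFE2L1DC line, and the 3 groups overlapped. The differences from control were -0.02 (SE 0.11, limma adjusted p = 0.931) and -0.08 (SE 0.11, adjusted p = 0.680). COL1A1 (ENSG00000108821, chr17:50183289-50201632, minus strand) stood at 21.0, 19.1 and 20.3 TPM in the controls. Its levels were 22.2, 15.9 and 16.4 TPM in the NFE2L1 line, with 22.1, 19.4 and 20.6 TPM in the NFE2L1DC line, again overlapping. The differences were -0.15 (SE 0.14, adjusted p = 0.455) and 0.04 (SE 0.14, adjusted p = 0.882).

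COL27A1, a fibrillar collagen known from cartilage, was the lowest of the 4 (ENSG00000196739, chr9:114155560-114312511, plus strand). It stood at 6.13, 4.52 and 8.49 TPM in the controls, at 10.1, 12.7 and 10.2 TPM in the NFE2L1 line and at 8.22, 5.12 and 8.46 TPM in the NFE2L1DC line. The NFE2L1 libraries lay above the others without overlap, at 1.73 times the control mean, but the difference did not pass the test (0.73, SE 0.24, limma adjusted p = 0.0770). Without control replicate 3, the highest control, it did (0.93, adjusted p = 0.0125). In the NFE2L1DC line the difference was 0.17 (SE 0.24, adjusted p = 0.683).

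**Figure D2:**
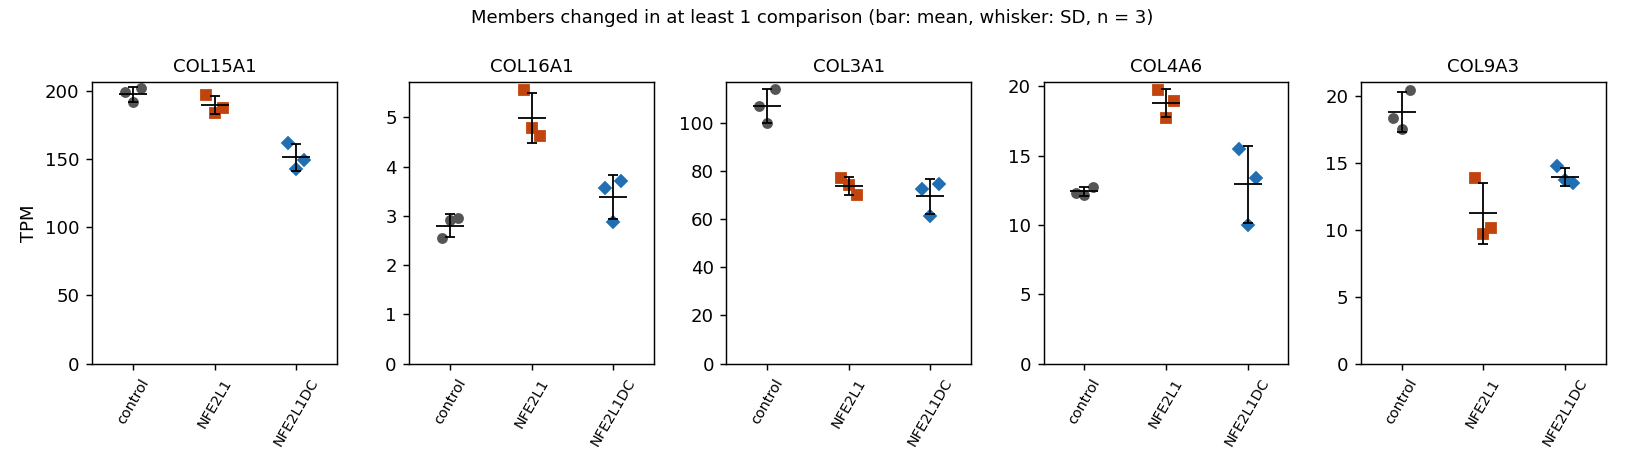
TPM in each library of the 5 collagen genes that changed in at least 1 comparison, with the mean as a bar and the SD as a whisker (n = 3), each panel on its own axis from 0. COL3A1 is lower than control in all 6 overexpression libraries, COL15A1 in the 3 NFE2L1DC libraries, and COL4A6 and COL16A1 are higher than control in the 3 NFE2L1 libraries.

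Among the type IV genes, COL4A6 rose in the NFE2L1 line and none passed the test in the NFE2L1DC line. COL4A6 encodes a chain of the minor type IV network of smooth muscle and some epithelia, built with the COL4A5 chain. COL4A6 (ENSG00000197565, chrX:108155607-108439497, minus strand) stood at 12.3, 12.2 and 12.8 TPM in the controls, at 19.7, 17.7 and 18.9 TPM in the NFE2L1 line and at 15.5, 9.98 and 13.4 TPM in the NFE2L1DC line. The NFE2L1 libraries lay above all others, and the NFE2L1DC libraries lay on both sides of the controls. The mean rose from 12.4 ± 0.294 to 18.8 ± 1.02 TPM, 1.51 times (0.56, SE 0.15, limma adjusted p = 0.0460). For NFE2L1DC the difference was 0.03 (SE 0.15, adjusted p = 0.903). Of 6 biliary epithelial markers KRT7 alone reached 1 TPM, while KRT19, SOX9, EPCAM, CFTR and AQP1 stayed below it. The list summed to 489 to 587 TPM in the controls and 887 to 959 TPM in the NFE2L1 line, with 763 to 883 TPM in the NFE2L1DC line, and its part in the rise was not tested. The rise was called in 7 of 17 other fits. The fits that lost it included those with median-of-ratios scaling (0.39, adjusted p = 0.121), with no filter on low values (adjusted p = 0.0858) and with no variance trend (adjusted p = 0.0524), and those without control replicate 1 or 2, any NFE2L1 library or NFE2L1DC replicate 3 (0.52 to 0.60, adjusted p 0.0722 to 0.140).

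COL4A5 (ENSG00000188153, chrX:108439844-108697545, plus strand) shares the upstream stretch shown above with COL4A6. It stood at 28.9, 29.6 and 41.3 TPM in the controls, at 39.4, 40.6 and 39.4 TPM in the NFE2L1 line and at 32.4, 25.7 and 25.8 TPM in the NFE2L1DC line. Control replicate 3 lay above all other libraries and the remaining controls below all NFE2L1 libraries. The difference for NFE2L1 was 0.27 (SE 0.15, limma adjusted p = 0.248), and without control replicate 3 it was 0.43 and passed (adjusted p = 0.0201). For NFE2L1DC it was -0.23 (SE 0.15, adjusted p = 0.384). The ratio of COL4A5 to COL4A6 within a library was 2.67 ± 0.495 in the controls and 2.12 ± 0.152 in the NFE2L1 line, with 2.20 ± 0.335 in the NFE2L1DC line.

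COL4A1 and COL4A2 encode the chains of the basement membrane network found in nearly all tissues. COL4A2 (ENSG00000134871, chr13:110305812-110513209, plus strand) stood at 204, 161 and 169 TPM in the controls, at 159.8, 155 and 164 TPM in the NFE2L1 line and at 165, 143 and 168 TPM in the NFE2L1DC line. COL4A1 (ENSG00000187498, chr13:110148963-110307233, minus strand) stood at 41.4, 37.2 and 46.5 TPM in the controls, at 51.5, 46.1 and 49.1 TPM in the NFE2L1 line and at 51.3, 40.0 and 46.8 TPM in the NFE2L1DC line. Groups overlapped for both genes. For NFE2L1 the differences were 0.23 for COL4A1 (SE 0.12, limma adjusted p = 0.220) and -0.15 for COL4A2 (SE 0.10, adjusted p = 0.331). For NFE2L1DC they were 0.14 (SE 0.12, adjusted p = 0.514) and -0.16 (SE 0.10, adjusted p = 0.371).

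The mature protein holds 2 COL4A1 chains for each COL4A2 chain, whereas the transcripts stood the other way round. The ratio of COL4A2 to COL4A1 was 4.92, 4.34 and 3.63 in the controls and 3.10, 3.36 and 3.34 in the NFE2L1 line, with 3.21, 3.58 and 3.59 in the NFE2L1DC line. All 9 libraries held more COL4A2, and the overexpression libraries lay below the controls. Transcript GC content, as a mean over the annotated transcripts of a gene, is 55.8% for COL4A2 and 49.5% for COL4A1. The controls with the highest ratios are those whose deviations rose with GC. The part of GC content in the ratio was not tested. The 2 genes overlap on opposite strands at their 5′ ends, and no source used here says whether the libraries were stranded.

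Among the 9 other genes tested, COL16A1 rose and COL9A3 fell in the NFE2L1 line, and COL15A1 fell in the NFE2L1DC line. COL15A1 and COL18A1 are the multiplexins, proteoglycan collagens of basement membrane zones. COL15A1 (ENSG00000204291, chr9:98943179-99070792, plus strand) had the highest mean level of all collagens. It stood at 199, 191 and 202 TPM in the controls, at 197, 184 and 188 TPM in the NFE2L1 line and at 162, 143 and 149 TPM in the NFE2L1DC line. The NFE2L1DC libraries lay below all others, while the NFE2L1 line overlapped the controls.

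In the NFE2L1DC line COL15A1 fell from 197.6 ± 5.52 to 151 ± 9.82 TPM, 0.765 times (-0.38, SE 0.07, limma adjusted p = 0.0227). In the NFE2L1 line the difference was -0.06 (SE 0.07, adjusted p = 0.577). The fall was called in 8 of 17 other fits. The fits that lost it included those with correction for GC content and length (-0.31, adjusted p = 0.0987), without the variance trend (adjusted p = 0.0750) and with only the 2 groups (adjusted p = 0.0962). It was also lost without control replicate 1 or 2, NFE2L1 replicate 3 or NFE2L1DC replicate 2 or 3 (-0.41 to -0.34, adjusted p 0.0517 to 0.0975). The gene AL136084.3, on the opposite strand within the locus, stood at 5.13 to 11.3 TPM.

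COL18A1, whose product releases the fragment endostatin, did not pass the test in either line (ENSG00000182871, chr21:45405137-45513720, plus strand). It stood at 17.3, 16.1 and 15.3 TPM in the controls, at 21.4, 20.9 and 22.2 TPM in the NFE2L1 line and at 22.0, 17.7 and 22.8 TPM in the NFE2L1DC line. All 6 overexpression libraries lay above the controls. The differences were 0.39 (SE 0.12, limma adjusted p = 0.0661) and 0.33 (SE 0.12, adjusted p = 0.148). With correction for GC content and length the first was 0.49 and passed (adjusted p = 0.0224). Of 8 endothelial markers ENG and ERG reached 1 TPM, and PECAM1, VWF, CDH5, KDR, TEK and EMCN stayed below it. Their sum ranged from 63.1 to 70.6 TPM in the controls and from 79.1 to 81.2 TPM in the NFE2L1 line. In the NFE2L1DC line it ranged from 82.1 to 94.6 TPM. ENG made up most of it, at 66.1 ± 3.88, 77.7 ± 0.976 and 85.0 ± 6.59 TPM in the 3 groups. KDR, TEK and EMCN were listed at 0 in every library. The sum is thus close to the level of 1 gene, and the part of endothelial cells was not tested. The span of COL18A1 overlaps that of SLC19A1 on the opposite strand, at 24.7 to 59.9 TPM. Whether their exons overlap was not checked, and reads from any shared exon stretch cannot be told apart without strand.

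Fibril-associated collagens bind to the surface of fibrils, and 4 of them were tested. COL16A1 (ENSG00000084636, chr1:31652247-31704319, minus strand) stood at 2.54, 2.91 and 2.96 TPM in the controls, at 5.56, 4.78 and 4.62 TPM in the NFE2L1 line and at 3.57, 2.88 and 3.72 TPM in the NFE2L1DC line. The NFE2L1 libraries lay above all others. The mean rose from 2.81 ± 0.226 to 4.99 ± 0.502 TPM, 1.78 times (0.65, SE 0.15, limma adjusted p = 0.0245), and in the NFE2L1DC line the difference was 0.20 (SE 0.15, adjusted p = 0.435). The rise was called in 9 of 17 other fits. The fits that lost it included those with median-of-ratios scaling (0.51, adjusted p = 0.0571) and only the 2 groups (adjusted p = 0.0532), and those without control replicate 1 or 2 or any NFE2L1 library (0.59 to 0.70, adjusted p 0.0704 to 0.0994).

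COL9A3 and COL9A2 encode chains of type IX collagen, best known from cartilage. COL9A3 (ENSG00000092758, chr20:62816244-62841159, plus strand) stood at 18.4, 17.6 and 20.5 TPM in the controls, at 13.9, 9.69 and 10.2 TPM in the NFE2L1 line and at 14.8, 13.7 and 13.5 TPM in the NFE2L1DC line. All 6 overexpression libraries lay below the controls. In the NFE2L1 line the mean fell from 18.8 ± 1.51 to 11.2 ± 2.31 TPM, 0.598 times (-0.71, SE 0.14, limma adjusted p = 0.0180). In the NFE2L1DC line it was 0.745 times the control mean and did not pass (-0.40, SE 0.14, adjusted p = 0.155).

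The COL9A3 fall was called in 10 of 17 other fits. The fits that lost it included those with correction for GC content and length (-0.54, adjusted p = 0.0796) and only the 2 groups (adjusted p = 0.0520), and those without control replicate 1 or 2 or NFE2L1 replicate 2 or 3 (-0.75 to -0.62, adjusted p 0.0501 to 0.0756). COL9A3 overlaps TCFL5 on the opposite strand, which stood at 33.5 to 46.8 TPM. COL9A2 ranged from 3.31 to 4.09 TPM in the controls, from 1.01 to 3.54 TPM in the NFE2L1 line and from 3.58 to 4.10 TPM in the NFE2L1DC line. NFE2L1 replicate 1 lay within the controls and the other two NFE2L1 libraries below them (-0.66, SE 0.26, limma adjusted p = 0.126).

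COL12A1, which links fibrils to their surroundings, was unequal among the controls (ENSG00000111799, chr6:75084326-75206051, minus strand). It stood at 45.0, 35.4 and 80.7 TPM in the controls, at 72.4, 72.1 and 75.8 TPM in the NFE2L1 line and at 78.7, 55.7 and 55.5 TPM in the NFE2L1DC line. Control replicate 3 lay above all other libraries, and the remaining controls below all of them. The differences were 0.53 (SE 0.26, limma adjusted p = 0.200) and 0.30 (SE 0.26, adjusted p = 0.517). Without control replicate 3 they were 0.86 (adjusted p = 0.00546) and 0.63 (adjusted p = 0.0262). Mean transcript GC content is 46.5% for COL12A1, as it is for COL4A5, and the part of GC content in the spread of the controls was not tested.

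COL7A1, the anchoring fibril collagen of skin, passed the test in neither line (ENSG00000114270, chr3:48564073-48595267, minus strand). It stood at 31.6, 26.1 and 29.6 TPM in the controls, at 30.2, 27.1 and 27.9 TPM in the NFE2L1 line and at 31.3, 27.9 and 30.0 TPM in the NFE2L1DC line. The differences were -0.03 (SE 0.10, limma adjusted p = 0.861) and 0.03 (SE 0.10, adjusted p = 0.870). COL6A1 ranged from 1.68 to 2.85 TPM in the controls, from 1.91 to 2.08 TPM in the NFE2L1 line and from 0.831 to 1.51 TPM in the NFE2L1DC line (-0.46 for NFE2L1DC, SE 0.19, adjusted p = 0.208). COL8A1 overlapped in all groups, and neither low gene passed the test in any comparison.

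Over the whole family, 4 of 17 tested collagens changed in the NFE2L1 line (23.5%), against 10.4% of all 14118 genes. Of these, 2 rose (7.83% of all genes rose) and 2 fell (2.57% of all genes fell). In the NFE2L1DC line 2 of 17 changed (11.8%), against 3.61% of all genes: none rose (2.06% of all genes) and 2 fell (1.54% of all genes). With counts this small nothing particular to collagens is read from these shares. At an unadjusted p under 0.05 the collagens numbered 7 of 17 for NFE2L1, against 30.4% of all genes, and 5 of 17 for NFE2L1DC, against 21.7%.

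The median log2 fold change was -0.01 over the 17 collagens and 0.17 over all genes for NFE2L1, and 0.03 and 0.12 for NFE2L1DC. Median-of-ratios scaling moved the median of all genes to 0.01 for NFE2L1 and to 0.02 for NFE2L1DC, and that of the collagens to -0.14 and -0.09. On that scale 0 collagens rose and 2 fell in the NFE2L1 line. With correction for GC content and length the NFE2L1 medians were 0.14 over the collagens and 0.17 over all genes. For NFE2L1DC they were 0.03 and 0.11. Over all genes 1105 rises and 363 falls as deposited became 542 and 526 when scaled for NFE2L1, and 291 rises and 218 falls became 119 and 198 for NFE2L1DC. Without control replicate 3 the changed collagens numbered 7 for NFE2L1, when 35.8% of all genes were called, and 3 for NFE2L1DC, when 24.4% were. Without control replicate 1, or without control replicate 2, only COL3A1 was called in each line. Of all genes, 4.42% and 3.61% were called in these fits for NFE2L1, and 1.49% and 0.815% for NFE2L1DC.

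**Figure D3:**
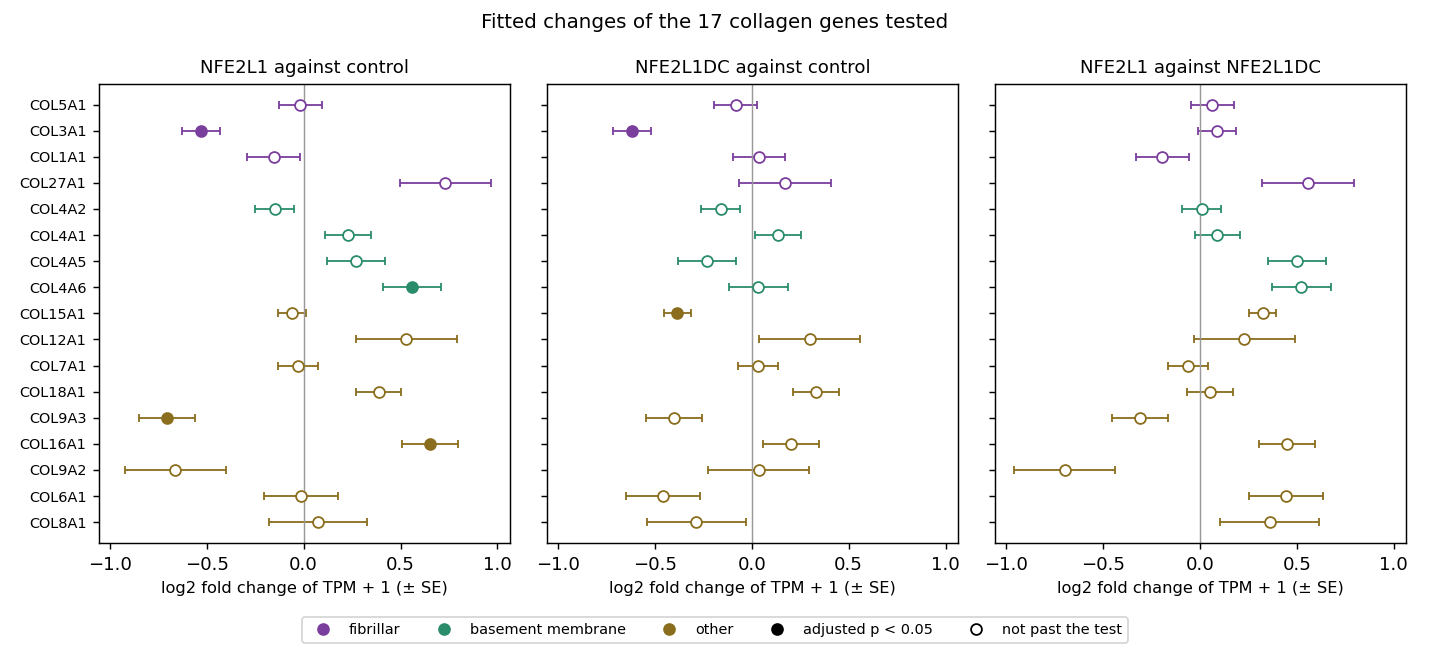
Log2 fold change of TPM + 1 with its SE for the 17 collagen genes tested, in the 3 comparisons, coloured by class, with filled points where the limma adjusted p was under 0.05. In the NFE2L1 line 4 points are filled, in the NFE2L1DC line 2, and in the comparison of the lines none.

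By class, 1 of 4 fibrillar, 1 of 4 type IV and 2 of 9 other collagens changed in the NFE2L1 line. The median log2 fold changes were -0.09, 0.25 and -0.01. In the NFE2L1DC line the counts were 1 of 4, 0 of 4 and 1 of 9, with medians of -0.02, -0.06 and 0.03. Differences between classes were not tested.

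The fibrillar sum was 278, 238.2 and 267 TPM in the controls and 237.5, 224 and 224 TPM in the NFE2L1 line, with 228, 190.0 and 236 TPM in the NFE2L1DC line. All 6 overexpression libraries lay below the lowest control. The mean of the sum differed from control by -32.5 TPM for NFE2L1 and by -43.1 TPM for NFE2L1DC, and that of COL3A1 alone by -33.2 and -37.5 TPM. With median-of-ratios scaling the sum differed by -64.6 and -65.7 TPM and COL3A1 by -44.8 and -46.0 TPM, so the sum and COL3A1 were close on the deposited scale alone. The type IV sum was 267 ± 23.4, 268 ± 6.69 and 247 ± 23.5 TPM in the 3 groups. For the other collagens it was 327 ± 31.2, 336 ± 12.2 and 289.6 ± 27.1 TPM. Scaling turned the sign of both NFE2L1 differences from control, from 1.02 to -34.0 TPM for the type IV sum and from 9.47 to -32.2 TPM for the other collagens. For NFE2L1DC both were negative on either scale, at -20.1 and -43.9 TPM for type IV and -37.2 and -64.4 TPM for the others. Fibrillar genes made up 30.5% ± 0.811 of collagen TPM in the controls and 27.4% ± 0.393 in the NFE2L1 line, with 28.9% ± 1.42 in the NFE2L1DC line, and type IV genes 31.2% ± 1.11, 32.2% ± 0.559 and 32.7% ± 0.276.

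**Figure D4:**
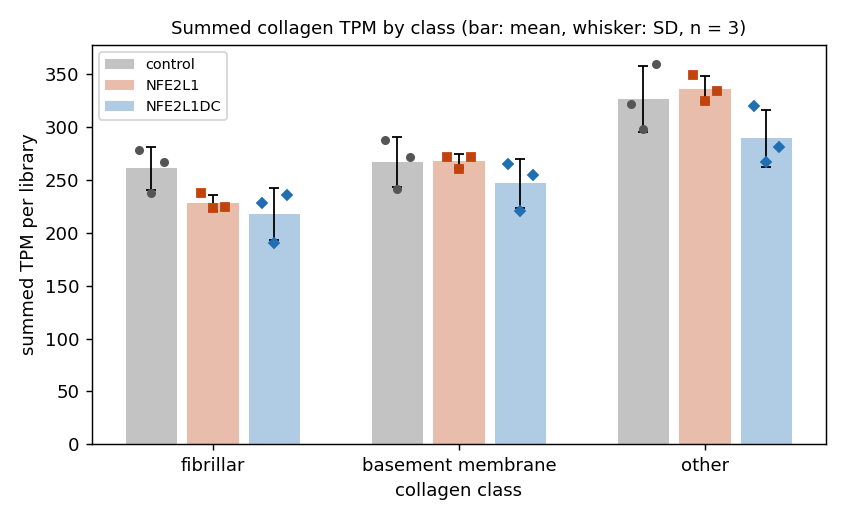
Summed TPM per library of the fibrillar, basement membrane (type IV) and other collagens, with bars for group means, whiskers for the SD (n = 3) and points for libraries. The fibrillar sum is 261 TPM in the controls and 229 and 218 TPM in the NFE2L1 and NFE2L1DC lines, while the basement membrane sums of all groups overlap.

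The direct comparison of the NFE2L1 with the NFE2L1DC line called 0 of 17 collagens in limma, against 0.793% of all genes changed, 0.715% higher and 0.0779% lower in the NFE2L1 line. At an unadjusted limma p under 0.05 there were 7 of 17, a larger share than the 8.19% of all genes. With counts this small nothing particular to collagens is read from it. Each of the 17 other limma fits also called 0. The gene nearest to the threshold was COL15A1, at 189 ± 6.77 against 151 ± 9.82 TPM (0.32, SE 0.07, adjusted p = 0.111). COL4A6 was at 18.8 ± 1.02 against 12.9 ± 2.77 TPM (0.52, SE 0.15, adjusted p = 0.278) and COL4A5 at 39.8 ± 0.694 against 28.0 ± 3.85 TPM (0.50, SE 0.15, adjusted p = 0.309). For these 3 genes the libraries of the lines did not overlap, with NFE2L1 higher. The same held for COL16A1 (0.45, adjusted p = 0.384), COL27A1 (0.56, adjusted p = 0.577) and COL6A1 (0.44, adjusted p = 0.595), and with NFE2L1 lower for COL9A2 (-0.70, adjusted p = 0.508). The share of all genes without overlap between the lines was not counted, so nothing is read from this separation. All 4 type IV genes had a positive difference, with a median of 0.30, against 0.06 over all genes. Those of COL4A1 (0.09, SE 0.12) and COL4A2 (0.01, SE 0.10) were smaller than their SE. Of all 14118 genes, 8903 had a positive difference. The calls made in 1 line and not the other are therefore not shown to differ between the lines.

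Genes that act on collagen were taken from 6 lists with 98 symbols, of which 66 genes were tested. In the NFE2L1 line 15 of the 66 changed (22.7%), against 10.4% of all genes, and in the NFE2L1DC line 6 did (9.09%), against 3.61%. Between the lines 2 of the 66 differed (3.03%), against 0.793%. Without control replicate 3 the counts were 28 for NFE2L1, when 35.8% of all genes were called, and 25 for NFE2L1DC, when 24.4% were. In the main fit the shares of all genes that rose and fell were 7.83% and 2.57% in the NFE2L1 line. In the NFE2L1DC line they were 2.06% and 1.54%. Other fits had other totals. Without control replicate 3, 4252 of 14118 genes rose and 803 fell for NFE2L1, and 2831 and 613 for NFE2L1DC. Without control replicate 1 these were 472 and 152, and 130 and 81. Without control replicate 2 they were 384 and 126, and 66 and 49. With median-of-ratios scaling 542 rose and 526 fell for NFE2L1. Nothing particular to any list is read from the counts by list that follow.

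Among 17 tested genes of chain folding and hydroxylation, 1 rose and 1 fell in each line, and without control replicate 3 these were 4 and 4 for NFE2L1 and 2 and 4 for NFE2L1DC. COLGALT1, which adds galactose to hydroxylysine, rose from 194 ± 15.2 to 236 ± 3.01 TPM in the NFE2L1 line (0.28, limma adjusted p = 0.0434) and to 262 ± 13.3 TPM in the NFE2L1DC line (0.43, adjusted p = 0.0184). P4HA2, a subunit of prolyl 4-hydroxylase, which stabilises the helix, fell from 49.2 ± 9.22 to 31.1 ± 2.84 TPM in the NFE2L1 line (-0.63, adjusted p = 0.0460). PPIB, a prolyl isomerase that helps chains fold, fell from 1172 ± 88.5 to 945 ± 41.9 TPM in the NFE2L1DC line (-0.31, adjusted p = 0.0422). These 4 calls were made in 6, 10, 8 and 3 of 17 other fits.

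Of 12 tested genes of export, processing and cross-linking, 1 rose and 1 fell in the NFE2L1 line, while 2 fell in the NFE2L1DC line. When control replicate 3 was left out, 3 rose and 1 fell for NFE2L1, and 1 rose and 2 fell for NFE2L1DC. LOXL2, a lysyl oxidase-like enzyme that cross-links collagen, fell in both, from 319 ± 28.2 TPM to 223 ± 1.47 TPM (-0.51, limma adjusted p = 0.00584) and to 172 ± 10.5 TPM (-0.89, adjusted p = 0.000967). Both falls were called in all 17 other fits. PCOLCE and PCOLCE2 enhance the cutting of procollagen. PCOLCE2 rose from 18.9 ± 3.33 to 29.2 ± 3.84 TPM in the NFE2L1 line (0.61, adjusted p = 0.0471, called in 4 of 17 other fits), and PCOLCE fell from 27.6 ± 3.03 to 17.5 ± 1.37 TPM in the NFE2L1DC line (-0.63, adjusted p = 0.0455, called in 2 of 17).

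Of 11 tested basement membrane partners of type IV collagen, 2 laminin chains rose in the NFE2L1 line and none changed in the NFE2L1DC line. LAMA1 went from 18.1 ± 5.97 to 29.5 ± 0.747 TPM (0.72, limma adjusted p = 0.0420, called in 4 of 17 other fits) and LAMC1 from 79.1 ± 18.5 to 115 ± 6.24 TPM (0.56, adjusted p = 0.0493, called in 3 of 17). Leaving out control replicate 3 gave differences of 0.96 for LAMA1 (adjusted p = 0.000599) and 0.74 for LAMC1 (adjusted p = 0.00198), and 3 partners rose in each line. Without control replicate 1, or without control replicate 2, none was called. Of 10 collagen receptors 4 were tested and none changed in any comparison, with 2 rising for NFE2L1 and 1 for NFE2L1DC without control replicate 3. Among 5 tested collagenases and inhibitors, 2 rose in the NFE2L1 line and none changed in the NFE2L1DC line, where 1 rose and 1 fell without control replicate 3. MMP15, a membrane-bound metalloproteinase, rose from 37.6 ± 1.86 to 48.5 ± 0.410 TPM (0.36, adjusted p = 0.0227, called in 10 of 17). TIMP4, an inhibitor of metalloproteinases, rose from 3.67 ± 0.249 to 8.95 ± 0.159 TPM (1.09, adjusted p = 0.00185, called in all 17) and was also above the NFE2L1DC line, at 4.20 ± 0.696 TPM (0.94, adjusted p = 0.0163, called in 11 of 17).

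TGF-beta signalling is the best known inducer of fibrillar collagen genes in fibrosis. Of 17 tested members 6 rose and 1 fell in the NFE2L1 line, and 2 rose and none fell in the NFE2L1DC line. Over all genes 7.83% rose and 2.57% fell in the former and 2.06% and 1.54% in the latter. CTGF, a target of the pathway, rose from 2.57 ± 0.0975 to 7.37 ± 0.682 TPM in the NFE2L1 line (1.23, limma adjusted p = 0.00108) and to 7.41 ± 1.09 TPM in the NFE2L1DC line (1.23, adjusted p = 0.00331), in all 17 other fits. The receptor genes TGFBR1 and TGFBR2 rose in the NFE2L1 line, TGFBR1 from 2.57 ± 0.0290 to 5.61 ± 0.571 TPM (0.89, adjusted p = 0.0132, called in 15 of 17). TGFBR2 went from 15.4 ± 5.81 to 31.7 ± 2.08 TPM (1.05, adjusted p = 0.0207, called in 11 of 17). SMAD2, a signal transducer, rose from 33.7 ± 13.8 to 70.6 ± 13.1 TPM (1.13, adjusted p = 0.0450), a call made in 2 of 17 other fits. Without control replicate 3 the differences were 1.33 for TGFBR2 (adjusted p = 0.000736) and 0.74 for SMAD2 (adjusted p = 0.0146).

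SMAD6, an inhibitor of signalling, rose in both lines. From 23.5 ± 1.69 TPM in the controls it went to 37.6 ± 1.31 TPM in the NFE2L1 line (0.66, limma adjusted p = 0.00839, called in all 17 other fits) and to 38.3 ± 4.98 TPM in the NFE2L1DC line (0.68, adjusted p = 0.0165, called in 12 of 17). TGFBI, a matrix protein, rose in the NFE2L1 line from 47.5 ± 3.48 to 63.1 ± 3.00 TPM (0.41, adjusted p = 0.0460, called in 5 of 17). It was also higher there than in the NFE2L1DC line, at 37.9 ± 4.68 TPM (0.73, adjusted p = 0.0166, called in 10 of 17). The 1 member that fell was LTBP1, which holds latent TGF-beta in the matrix, from 10.4 ± 0.803 to 6.57 ± 0.243 TPM (-0.59, adjusted p = 0.0346, called in 9 of 17). LTBP1, and the NFE2L1 values of SMAD6 and TGFBI, fall outside the naming rule and were chosen after they were seen. With median-of-ratios scaling 4 rose and 2 fell in the NFE2L1 line. Without control replicate 2 the count was 2 rises and no fall, without control replicate 1 it was 3 rises and no fall, and without control replicate 3 it was 8 rises and 1 fall. For NFE2L1DC it was 1 rise without control replicate 1 or 2, and 7 rises and 3 falls without control replicate 3. The totals over all genes in these fits are those given above with the lists.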

How the data were processed

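RNA from 9 libraries labelled HepG2, 3 per group, was sequenced on a platform written HiseqNOVA, per the labels' protocols. The authors deposited 1 table of TPM values for 58174 genes. The submitters' processing notes name GRCh38 and CASAVA. The sources used here give no aligner, quantifier, annotation, strandedness or filter. No counts were present, so depth is unknown and limits the precision to an unknown degree. No 2 libraries were identical, and the labels do not say whether replicates were separate cultures, so p-values measure the spread between these samples, which may be technical.

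Genes reaching 1 TPM in at least 3 of 9 libraries (14118) were fitted as log2(TPM + 1) of the deposited values, with 1 mean per group over all 9 libraries, in limma 3.58.1 (R 4.3.3) with a variance trend (3.34 prior degrees of freedom). A count test, planned in case the table held counts, was not used. P-values were adjusted by Benjamini-Hochberg over all genes per comparison, and 0.05 was the threshold. SDs are over 3 libraries, SEs come from the fit, and folds are ratios of mean TPM. The script was tested on simulated data. Alternatives were a pseudocount of 0.1, no filter, median-of-ratios scaling, correction for GC content and transcript length (mgcv 1.9.3), no trend, only the 2 groups compared, the replicate number as a block, and leaving out each library.

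Coordinates come from GENCODE release 29, which held 57836 of the gene identifiers and all 44 collagens. The GC content of a gene is the mean, and its length the median, over all its transcripts there. Short transcripts count as much as long ones, so both can differ from those of the main transcript. Motifs and sequences come from RefSeq windows of GRCh38.p14. Members and lists were chosen with earlier results of these data known. All collagens reaching 1 TPM are named, with the value of every library for those changed in a comparison or with a group mean of at least 10 TPM. From each of 6 pathway lists up to 4 changed genes per comparison were named by absolute log2 fold change. NFE2L1 is given as the check of the labels. Marker lists were hepatocyte, fibroblast and stellate, endothelial, biliary and immune. Some genes of these lists are not reported here, and counts and sums leave them out. Figures were drawn with matplotlib 3.10.9.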

Additional observations from a re-analysis of the deposited data

How the results depend on the processing

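In the NFE2L1 line the number of changed collagens, 4, was 2 with median-of-ratios scaling, 2 with only the 2 groups compared and 2 with the replicate block, and between 0 and 7 when 1 library was left out. It was 0 without NFE2L1 replicate 3, 1 without control replicate 1, control replicate 2 or NFE2L1 replicate 2, and 7 without control replicate 3. Of all genes, 7.56%, 6.01% and 6.18% were called with scaling, with only the 2 groups and with the block. Without NFE2L1 replicate 3 the share was 3.76%, and without NFE2L1 replicate 2 it was 4.06%. Without control replicates 1, 2 and 3 it was 4.42%, 3.61% and 35.8%. For NFE2L1DC the count of 2 was 1 with correction for GC content and length, 1 without the variance trend, 0 with only the 2 groups and 1 with the replicate block together with the GC and length correction. Of all genes, 5.22%, 2.22%, 0.715% and 2.61% were called in these fits, in that order. With the replicate block the calls of COL4A6 (adjusted p = 0.0627) and COL16A1 (adjusted p = 0.0583) were lost, and with the block together with the correction those of COL9A3 (adjusted p = 0.103) and, for NFE2L1DC, COL15A1 (adjusted p = 0.128). The NFE2L1DC count was 2 with the replicate block alone and between 1 and 3 when 1 library was left out. Between the lines it was 0 in every fit. Replicate numbers did not pair the libraries: same-numbered libraries had correlations of -0.189 to 0.109 in their deviations from group means. Over all genes, leaving out 1 library moved the NFE2L1 count between 510 and 5055. Scaling moved the NFE2L1 class sums from 229 to 214 TPM (fibrillar), from 268 to 251 TPM (type IV) and from 336 to 315 TPM (other). Their difference from control went from -32.5 to -64.6 TPM (fibrillar) and changed sign from 1.02 to -34.0 TPM (type IV) and from 9.47 to -32.2 TPM (other). Of 867 refits of single collagens, 823 kept the direction and side of the threshold of a call or stayed below it, 36 lost a call and 8 gained one. None of the 6 calls changed sign. Among collagens not called, 40 refits of 16 differences changed sign, none passing the test. Of 391 refits of changed pathway genes, 164 lost the call. The cause was not tested. Without counts, a gene listed at 0 cannot be given a detection limit.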
